A study of Mus musculus with 16 samples.

Results

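Collagens were followed as a gene family across the surface ectoderm and the underlying mesoderm of the developing mouse forelimb. The members were all genes of the count table named Col, a number, the letter a and a number, apart from 5 chains (Col7a1, Col17a1, Col2a1, Col9a1 and Col9a3) out of 44, which gave 39 of 53800 genes. The rule uses gene names alone. RNA sequencing covered 16 libraries in 8 groups of 2: ectoderm and mesoderm of the distal forelimb at 4 embryonic days, from E9.5 to E12.5 in steps of 1 day. All embryos were of the B6 strain. A strip at the distal edge of the limb was treated with trypsin on ice and the layers were pulled apart with forceps, so a library holds every cell type left in its layer. A single batch of embryos gave both the ectoderm and the mesoderm library of a given stage and replicate. Replicate 1 was purified with the RNeasy Plus Mini kit and replicate 2 with the RNeasy Mini kit, so embryo batch and kit cannot be told apart.

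Collagens are triple-helical proteins of the extracellular matrix. Fibrillar collagens form the fibres of connective tissue and cartilage, and type IV collagens form the sheet-like network of the basement membrane on which an epithelium rests. Other classes decorate fibrils (the FACIT collagens), form beaded filaments or short-chain networks, carry large sugar chains at basement membranes (the multiplexins) or span the cell membrane. In the limb bud the basement membrane lies between ectoderm and mesoderm, and cartilage, tendon and dermis form later from the mesoderm and its neighbours.

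Total counts per library ran from 10005867 to 30438214. Levels below are CPM (counts over edgeR's scaled library size), always in the order replicate 1, replicate 2, and fold changes are log2 with a standard error (SE). Adjusted p-values come from edgeR's quasi-likelihood test over 15501 genes, with 0.05 as the threshold. The layers matched their labels: the summed level of 12 surface epithelium markers lay between 2693 and 7567 CPM for ectoderm, against 12.2 and 97.7 for mesoderm. The sum of 10 limb mesenchyme markers lay between 425 and 1526 CPM for ectoderm, against 1957 and 4945 for mesoderm. Not all of these markers followed the layer. At E10.5, 9 were called lower in ectoderm and 1, Pdgfra, higher (mean 466 against 215 CPM in mesoderm). Mean Msx1 at E9.5 was 205 CPM in ectoderm and 230 CPM in mesoderm. The sum of 10 endothelium markers lay between 6.55 and 35.9 CPM for ectoderm, against 402 and 755 for mesoderm. Ectoderm E11.5 replicate 1 had the highest mesenchyme sum of the ectoderm libraries (1526 CPM, the other 7 at 425 to 877 CPM). Mesoderm E12.5 replicate 1 stood apart from its partner, with 309 against 62.6 CPM of 10 tendon and connective tissue markers and 118 against 45.7 CPM of 8 macrophage markers. In the tendon and connective tissue sum of mesoderm at E12.5, Tnc alone had a mean of 149 CPM, and Mkx was next at 14.9 CPM. Mesoderm E12.5 replicate 1 also had the highest collagen share of all libraries, 0.967% of its counts, against 0.231% to 0.705% in the other 15. The part of these differences in the results was not tested, and values without them are given beside the counts, the medians and the members that turn on them. In bulk tissue, a lower level can come from fewer cells or from less RNA per cell, and these cannot be told apart.

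The start regions of 2 collagen loci that stood out between the layers are shown first, to show how the genes lie. No test here used their sequence. Col4a1 and Col4a2, the chains of the common basement membrane collagen, are transcribed away from each other on chromosome 8 from start sites 21 bases apart, yet they differed in their balance between layers. The windows run from 250 bases before to 50 bases after each start site in RefSeq (build GRCm38.p6), at chr8:11312777-11313076 on the minus strand for Col4a1 and chr8:11312555-11312854 on the plus strand for Col4a2. Capitals mark the 78 bases that both windows share, each read on its own strand.
Col4a1: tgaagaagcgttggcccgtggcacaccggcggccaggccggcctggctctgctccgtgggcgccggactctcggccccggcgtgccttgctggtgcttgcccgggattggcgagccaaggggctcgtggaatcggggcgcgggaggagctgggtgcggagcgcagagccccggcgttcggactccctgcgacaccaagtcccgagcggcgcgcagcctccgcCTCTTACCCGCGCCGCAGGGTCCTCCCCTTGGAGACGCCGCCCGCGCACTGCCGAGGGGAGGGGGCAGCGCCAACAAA
Col4a2: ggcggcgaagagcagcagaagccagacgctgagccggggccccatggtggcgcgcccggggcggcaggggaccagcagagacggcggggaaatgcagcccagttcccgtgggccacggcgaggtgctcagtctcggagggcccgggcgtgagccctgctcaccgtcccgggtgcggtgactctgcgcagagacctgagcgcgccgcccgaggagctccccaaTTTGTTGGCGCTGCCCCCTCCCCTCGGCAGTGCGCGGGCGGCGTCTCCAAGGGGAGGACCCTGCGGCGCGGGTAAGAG
Col18a1, the basement membrane heparan sulfate proteoglycan from which endostatin is cut, had the highest level per length in every ectoderm library. RefSeq lists more than 1 start for it, and 2 are shown, on the minus strand at chr10:77166481-77166780 (upstream) and chr10:77113656-77113955 (downstream). Here capitals mark matches to CCAAT or GGGCGG on either strand.
Col18a1 upstream start: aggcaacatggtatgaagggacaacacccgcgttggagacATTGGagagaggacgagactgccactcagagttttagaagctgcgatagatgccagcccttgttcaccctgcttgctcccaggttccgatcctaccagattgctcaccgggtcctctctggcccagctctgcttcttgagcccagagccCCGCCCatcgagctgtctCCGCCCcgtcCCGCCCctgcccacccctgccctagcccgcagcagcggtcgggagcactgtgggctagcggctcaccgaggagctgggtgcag
Col18a1 downstream start: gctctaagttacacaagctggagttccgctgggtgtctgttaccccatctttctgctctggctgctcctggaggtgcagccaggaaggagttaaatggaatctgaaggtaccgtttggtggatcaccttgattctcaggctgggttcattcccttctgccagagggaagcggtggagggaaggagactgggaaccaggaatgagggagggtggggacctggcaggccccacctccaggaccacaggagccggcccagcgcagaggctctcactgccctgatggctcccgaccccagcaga
Searched on both strands, the upstream window of Col18a1 held 1 CCAAT (written ATTGG) and 3 GGGCGG (written CCGCCC), and the downstream window held neither. The Col4a2 window held 3 GGGCGG and 1 CCAAT, and the Col4a1 window 1 of each, with overlapping windows sharing bases. TATAAA was in none of the 4 windows. Of 34 windows that RefSeq gave for 32 members, 64.7% held GGGCGG, 29.4% CCAAT and 11.8% TATAAA, against 35.7%, 37.4% and 13.6% of all 32851 promoter windows. A match is a description of the letters only.

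On average over the 4 stages, 6 members were higher in ectoderm and 15 were higher in mesoderm. These 21 calls compare with 45.7% of all tested genes called in the same comparison, 24.3% higher and 21.4% lower. Of the 39 members, 32 passed the filter on low counts and were tested, 11 of them without a call. The median difference, ectoderm minus mesoderm, was -0.31 over the 32 and 0.01 over all tested genes. Without ectoderm E11.5 replicate 1 the calls were again 6 higher and 15 lower, against 45.4% of genes, and without mesoderm E12.5 replicate 1 they were 8 higher and 15 lower, against 41.7%. The members higher in ectoderm were the basement membrane chains Col4a2, Col4a5 and Col4a6, the multiplexin Col18a1, the FACIT collagen Col19a1 and the transmembrane Col13a1. The members lower in ectoderm included every tested chain of type VI, 4 fibrillar collagens and 4 FACIT collagens.

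**Figure D1:**
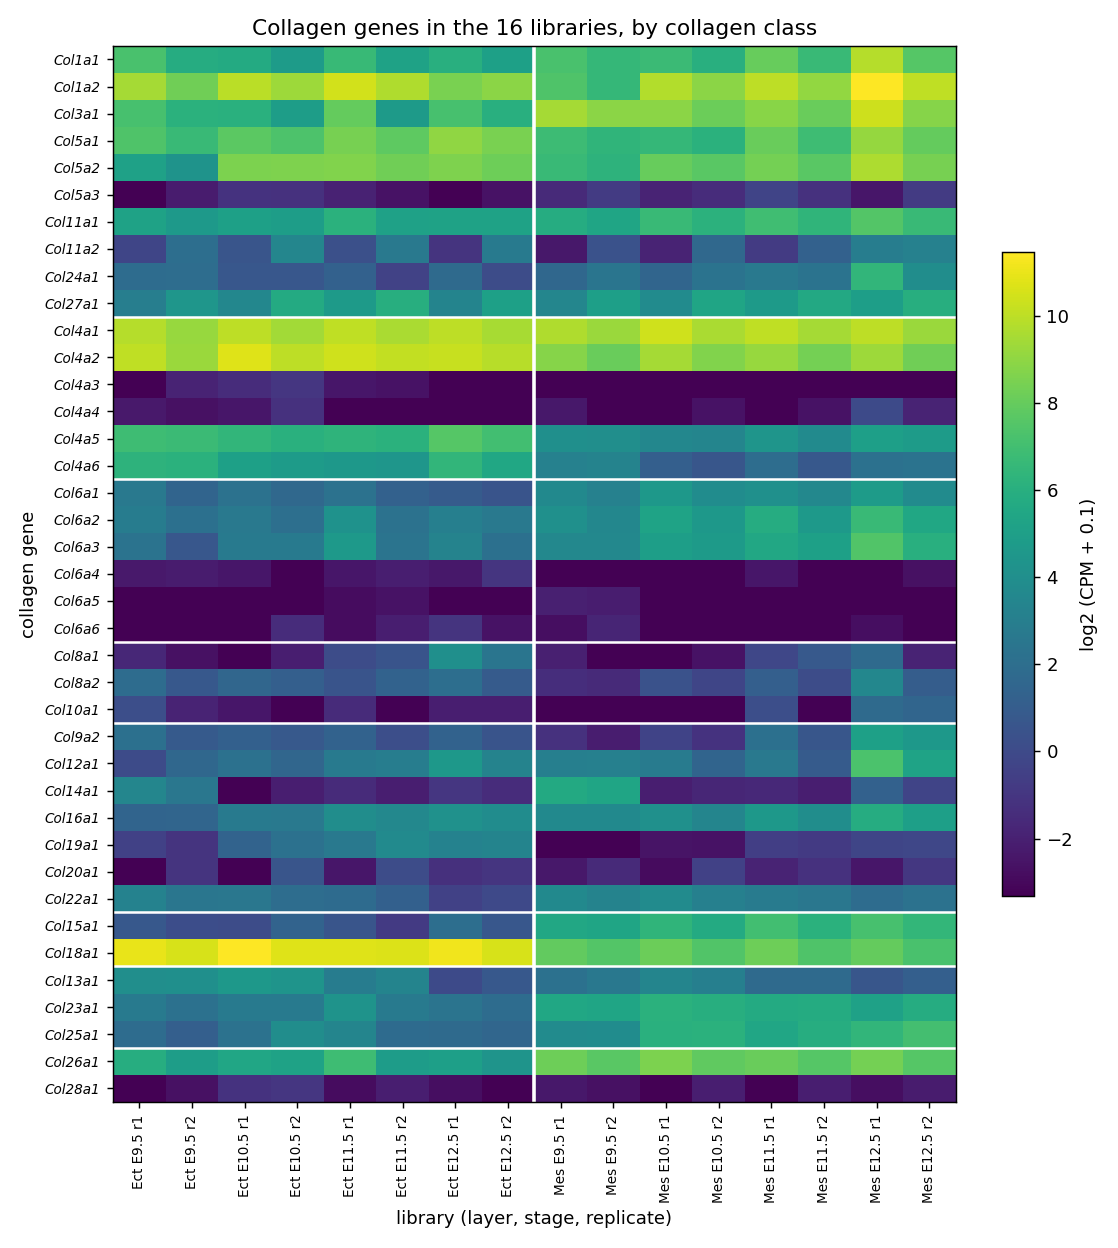
Level of each of the 39 collagen genes (rows, italic, ordered by class with white lines between classes) in each of the 16 libraries (columns, ectoderm left and mesoderm right of the thick white line, r1 and r2 the replicates), as log2 of CPM + 0.1. Col18a1, Col4a1 and Col4a2 were high in every ectoderm library, and 7 members, among them Col5a3 and Col28a1, were near 0 CPM throughout.

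**Figure D2:**
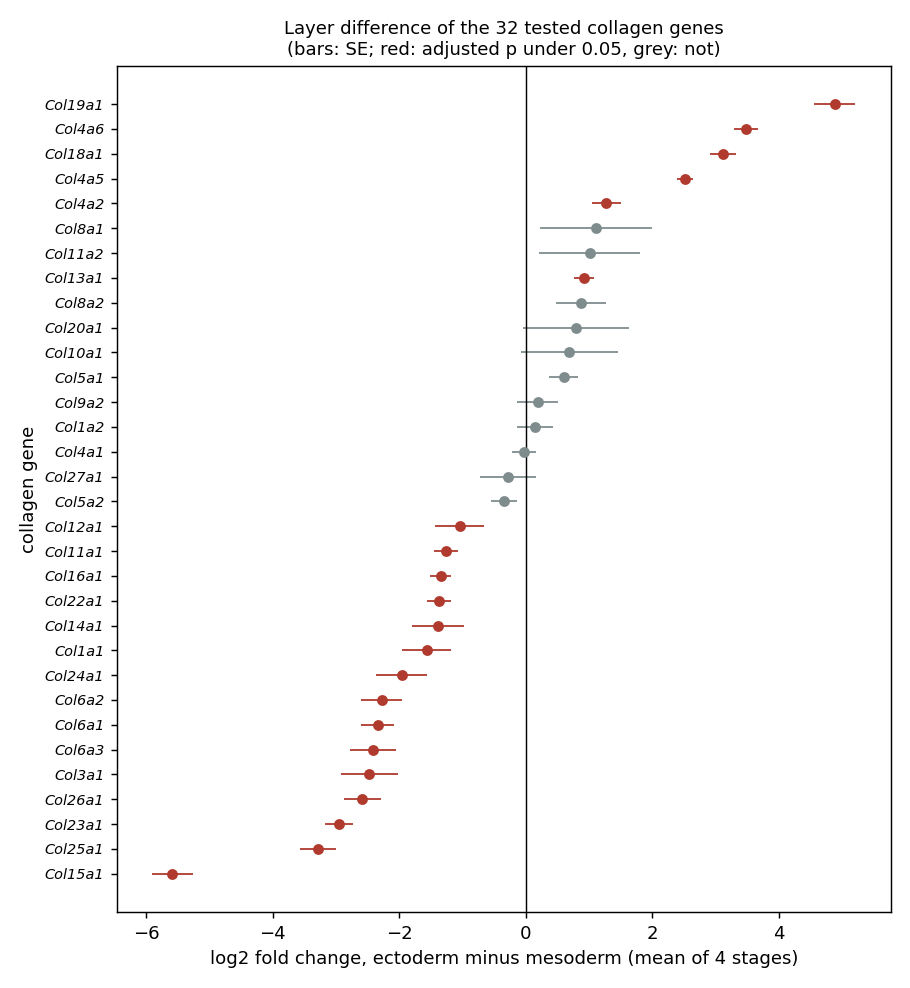
Difference between the layers for the 32 tested collagen genes, as log2 fold change of ectoderm minus mesoderm averaged over 4 stages, with the SE as bars, red where the adjusted p was under 0.05. Values ran from -5.58 for Col15a1 to 4.88 for Col19a1. The values of Col19a1 and Col10a1 depend on the prior count, because mesoderm had 0 counts of them at E9.5.

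By stage, 15 members were called at E9.5 (8 up and 7 down in ectoderm, against 21.4% of all genes called, 13.1% up and 8.29% down). At E10.5 the count was again 15 (5 up, 10 down, against 26.4% of genes, 16.2% up and 10.2% down), and at E11.5 it was 10 (5 up, 5 down, against 20.6%, 12.9% up and 7.69% down). At E12.5 the count was 21, with 4 up and 17 down in ectoderm, against 26.4% of genes, 13.3% up and 13.2% down. The median difference of the tested members was -0.20 at E9.5, -0.06 at E10.5 (-0.18 with members at 0 counts in a group set to their bound), -0.02 at E11.5 and -2.05 at E12.5, while that of all tested genes stayed between -0.01 and 0.04. With 1 library left out at a time and members at 0 counts set to their bound, the median of the 32 was at E9.5 from -0.31 to 0.0027, at E10.5 from -0.42 to 0.05 and at E11.5 from -0.38 to 0.08, on both sides of 0. At E12.5 it lay between -2.31 and -1.35, the latter without mesoderm replicate 1. Blocking on embryo batch gave 25 calls for E9.5 (42.4% of all genes), 24 for E10.5 (48.6%) and 19 for E11.5 (40%). It gave 27 for E12.5 (45.7%) and 25 for the average (65.9%). Ectoderm E11.5 replicate 1 had the highest mesenchyme marker sum of the ectoderm libraries, and its part in the counts was not tested. With it left out, the count at E11.5 was the highest of the fits with 1 library left out. At E12.5 it was 17 (6 higher and 11 lower, 19% of genes) without mesoderm replicate 1, of which 15 were among the 21, and at E10.5 it was 9 without ectoderm replicate 2 (17.7% of genes).

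The block on embryo batch added calls and ended none. At E9.5 it added Col4a2, Col5a1 and Col10a1 as higher in ectoderm and Col3a1, Col6a1, Col6a2, Col6a3, Col11a1, Col12a1 and Col22a1 as lower (adjusted p from 0.000136 to 0.0326). At E10.5 the added members were Col4a2, Col5a1, Col5a2, Col9a2 and Col11a2, higher, and Col1a1, Col4a1, Col6a3 and Col24a1, lower (adjusted p from 7.25e-05 to 0.0359). At E11.5 they were Col4a2 and Col5a1, higher, and Col1a1, Col3a1, Col6a2, Col6a3, Col11a1, Col24a1 and Col26a1, lower (adjusted p from 4.14e-05 to 0.0072). At E12.5 they were Col4a2 and Col8a1, higher, and Col5a2, Col10a1, Col11a2 and Col27a1, lower (adjusted p from 7.96e-05 to 0.0394). On average Col5a1 and Col8a2 were added as higher and Col5a2 and Col27a1 as lower (adjusted p from 3.34e-05 to 0.0136). Col4a2 was thus called at all 4 single stages only with the block.

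Basement membrane network collagens were mostly higher in ectoderm. Of 6 chains, 4 were tested, and 3 of these were higher in ectoderm on average, against 24.3% of all tested genes. Col4a5 and Col4a6, chains of specialised basement membranes such as those of skin and kidney, lie head to head on chromosome X with start sites 1309 bases apart. Col4a5 stood in ectoderm at 118 and 109 CPM at E9.5, 84.7 and 66.5 CPM at E10.5, 78.3 and 68.4 CPM at E11.5 and 191 and 128 CPM at E12.5. In mesoderm it stood at 16.5 and 15.8 CPM at E9.5, 11.4 and 10.6 CPM at E10.5, 21.0 and 13.5 CPM at E11.5 and 32.8 and 28.1 CPM at E12.5. The layers did not overlap, and in both of them the lowest library was of E10.5 and the highest of E12.5. The average difference was 2.52 (SE 0.13, adjusted p = 1.91e-08), and it was called at each of the 4 stages.

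Col4a6 was at 76.4 and 70.9 CPM at E9.5, 33.5 and 27.8 CPM at E10.5, 23.7 and 21.9 CPM at E11.5 and 85.9 and 44.4 CPM at E12.5 in ectoderm. Its mesoderm levels were 8.98 and 9.72 CPM at E9.5, 2.10 and 1.43 CPM at E10.5, 3.81 and 1.60 CPM at E11.5 and 4.49 and 4.82 CPM at E12.5. In both layers E10.5 and E11.5 were below E9.5. At E12.5 the ectoderm replicates lay on both sides of their E9.5 values, and both mesoderm replicates lay below theirs. The difference between the layers was 3.48 (SE 0.20, adjusted p = 5.12e-08), with no overlap between the 8 ectoderm and the 8 mesoderm libraries. From E9.5 to E12.5 the log2 fold change was -1.01 (SE 0.37, adjusted p = 0.0597) in mesoderm, past the threshold with the replicate number as a block (adjusted p = 0.00885), and -0.18 (SE 0.34, adjusted p = 0.827) in ectoderm. Col4a5 changed by 0.92 (SE 0.24, adjusted p = 0.0149) in mesoderm over the same time. That call was lost without mesoderm E9.5 replicate 1, E9.5 replicate 2 or E12.5 replicate 1 (adjusted p = 0.0686, 0.0762 and 0.0901).

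Col4a1 and Col4a2 are the chains of the network found in nearly all basement membranes, including those of vessels. Col4a1 was at 909 and 589 CPM at E9.5, 1003 and 676 CPM at E10.5, 1069 and 778 CPM at E11.5 and 1028 and 744 CPM at E12.5 in ectoderm and at 822 and 606 CPM at E9.5, 1371 and 783 CPM at E10.5, 1072 and 719.7 CPM at E11.5 and 1013 and 596 CPM at E12.5 in mesoderm. The layers overlapped at every stage. Averaged over stages, the layers differed by -0.03 (SE 0.19, adjusted p = 0.933), which missed the threshold. Blocked on embryo batch, E10.5 was past it (log2 fold change -0.33, adjusted p = 0.0233).

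Col4a2 was at 1053 and 619 CPM at E9.5, 1701 and 1022 CPM at E10.5, 1364 and 1098 CPM at E11.5 and 1215 and 947 CPM at E12.5 in ectoderm. In mesoderm it was at 447 and 267 CPM at E9.5, 726 and 399 CPM at E10.5, 592 and 336 CPM at E11.5 and 639.5 and 312 CPM at E12.5. At each stage both ectoderm replicates were above their mesoderm partners from the same embryos, although the ranges over all stages overlapped. Over all stages the mean difference was 1.27 (SE 0.23, adjusted p = 0.000754). At single stages it missed the threshold (adjusted p = 0.0847, 0.0644, 0.0528 and 0.0857 from E9.5 to E12.5), and when blocked on embryo batch each of them passed, with a largest adjusted p of 0.000136.

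As a ratio within each library, which removes library scaling, Col4a2 counts over Col4a1 counts ran from 1.05 to 1.69 in ectoderm (median 1.27) and from 0.441 to 0.631 in mesoderm (median 0.526). No ectoderm library overlapped a mesoderm library. In ectoderm the ratio was highest at E10.5, at 1.69 and 1.51, and lowest at E9.5, at 1.159 and 1.05. In mesoderm, E12.5 replicate 1 was highest, at 0.631. In deposited FPKM (fragments scaled to library size and transcript length) the ratio was 0.954 to 1.75 in ectoderm and 0.42 to 0.688 in mesoderm, again without overlap. A ratio shows that the 2 genes were in unequal balance between the layers, and not which of them was set apart. Vessel RNA also differs between the layers (endothelium markers above), and its part in the ratio was not tested.

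**Figure D3:**
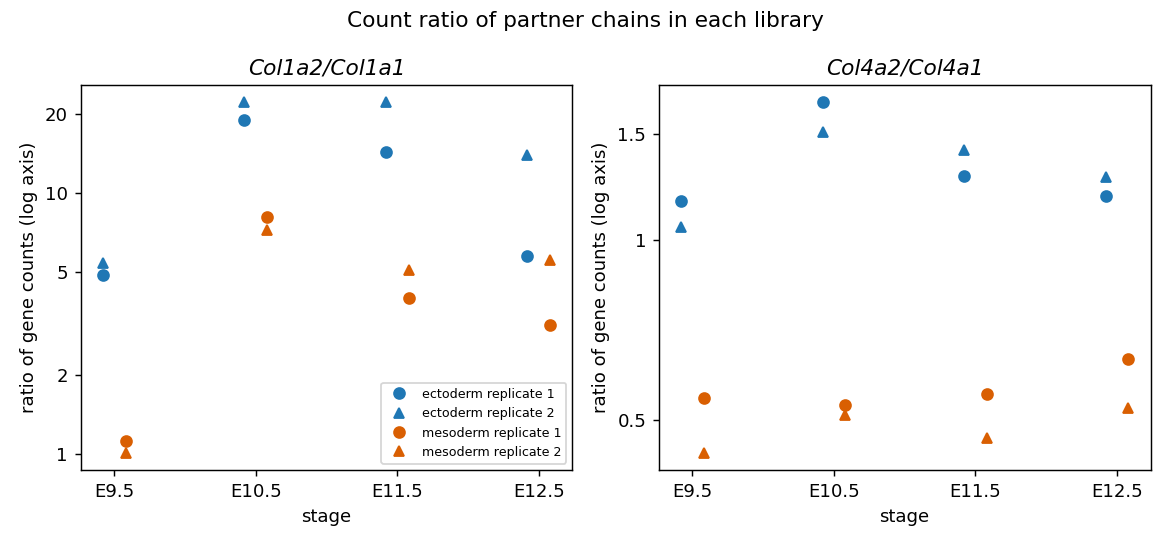
Ratio of gene counts in each library (log axis) by stage, for Col1a2 over Col1a1 (left) and Col4a2 over Col4a1 (right), blue for ectoderm, orange for mesoderm, circles for replicate 1 and triangles for replicate 2. The Col4a2 ratio was above 1 in all 8 ectoderm libraries and below 1 in all 8 mesoderm libraries, and the Col1a2 ratio was highest in ectoderm at E10.5 and E11.5.

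The other basement membrane pair, Col4a3 and Col4a4, chains of the mature glomerular membrane with start sites 72 bases apart, was near the floor and was not tested. Col4a3 had 9 counts over both ectoderm libraries at E10.5 and 0 in every mesoderm library. Col4a4 had 24 counts over the E12.5 mesoderm libraries, 21 of them in replicate 1, and 0 in ectoderm at that stage, at least 7.53-fold higher in mesoderm by the floor of 3 counts over a group.

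Multiplexins, which sit at the border of basement membrane and matrix, divided between the layers. Col18a1 was at 2050.4 and 1526 CPM at E9.5, 2837 and 1746 CPM at E10.5, 1701 and 1651 CPM at E11.5 and 2234 and 1512 CPM at E12.5 in ectoderm. Mesoderm libraries held 243 and 182 CPM at E9.5, 284 and 172 CPM at E10.5, 289.9 and 169 CPM at E11.5 and 256 and 147 CPM at E12.5. The lowest ectoderm library, at 1512 CPM, was far above the highest mesoderm library, at 289.9 CPM. The average difference was 3.12 (SE 0.21, adjusted p = 2.01e-07), called at each stage, and from the first to the last stage the level of Col18a1 changed by 0.07 in ectoderm (SE 0.38) and -0.08 in mesoderm (SE 0.38). Per length, Col18a1 alone was 44.0%, 43.0%, 32.1% and 40.1% of the summed FPKM of the 39 members in ectoderm from E9.5 to E12.5. In mesoderm it was 7.85%, 6.55%, 6.44% and 3.38%.

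Col15a1, the other multiplexin, known from vessel and muscle basement membranes, showed the opposite. In ectoderm it stood at 1.58 and 1.03 CPM at E9.5, 0.976 and 2.54 CPM at E10.5, 1.41 and 0.463 CPM at E11.5 and 3.98 and 1.52 CPM at E12.5. In mesoderm it stood at 47.1 and 41.1 CPM at E9.5, 80.8 and 52.6 CPM at E10.5, 128 and 70.2 CPM at E11.5 and 144 and 87.2 CPM at E12.5. All mesoderm libraries were above all ectoderm libraries. Averaged over stages, the layers differed by -5.58 (SE 0.32, adjusted p = 5.71e-08), the lowest of all members, and it was called at each stage. Within mesoderm, Col15a1 changed by 1.39 (SE 0.50, adjusted p = 0.0585) from E9.5 to E12.5, which passed only with the replicate number as a block (adjusted p = 0.000994). The endothelium marker sum in mesoderm was 755 and 562 CPM at E9.5 and 690 and 530 CPM at E12.5. The part of vessel RNA in the level or the change of Col15a1 was not tested.

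Reads were also counted in exon bins, in build mm10. For Col18a1, the 2 bins that open the transcript of the upstream start (chromosome 10, 77166439 to 77166548 and 77166290 to 77166360) held 0.344% and 0.914% of the gene's counts in ectoderm, and 0.400% and 1.10% in mesoderm. The bin at the downstream start (77112959 to 77113705, 747 bases) held 208 counts or 0.0446% in ectoderm and 9 counts or 0.0127% in mesoderm. The upstream bins had more counts than the downstream bin in both layers although they are shorter, at 110 and 71 bases. Among 29 members that could be tested for a layer difference in exon bin use with edgeR's diffSpliceDGE, 0 were called, against 1.61% of the 12203 genes tested, and 0 had an unadjusted p under 0.05. Blocked on embryo batch, the count was also 0. A missed threshold does not show equal use of exons.

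Type VI collagens form beaded filaments around cells. All 3 tested chains were higher in mesoderm on average, against 21.4% of all tested genes. Col6a1 was at 6.33 and 2.65 CPM at E9.5, 4.61 and 3.14 CPM at E10.5, 4.60 and 2.32 CPM at E11.5 and 1.83 and 1.32 CPM at E12.5 in ectoderm and at 12.8 and 9.04 CPM at E9.5, 23.2 and 14.7 CPM at E10.5, 17.1 and 11.9 CPM at E11.5 and 27.8 and 13.8 CPM at E12.5 in mesoderm. The layers did not overlap. Over all stages the mean difference was -2.34 (SE 0.26, adjusted p = 1.5e-05). In ectoderm Col6a2 was at 7.38 and 4.28 CPM at E9.5, 6.21 and 4.07 CPM at E10.5, 18.2 and 4.70 CPM at E11.5 and 8.28 and 6.27 CPM at E12.5, and Col6a3 was at 4.85 and 1.51 CPM at E9.5, 6.74 and 6.61 CPM at E10.5, 24.5 and 5.03 CPM at E11.5 and 9.52 and 4.22 CPM at E12.5. In both, ectoderm E11.5 replicate 1 was the highest ectoderm library and mesoderm E12.5 replicate 1 the highest mesoderm library, and each ectoderm library was below its mesoderm partner from the same embryos. The average differences were -2.28 (SE 0.32, adjusted p = 0.000113) for Col6a2 and -2.41 (SE 0.36, adjusted p = 0.00019) for Col6a3. Without ectoderm E11.5 replicate 1 they were -2.65 (SE 0.29, adjusted p = 2.67e-05) and -2.85 (SE 0.33, adjusted p = 3.58e-05), and without mesoderm E12.5 replicate 1 they were -2.10 (SE 0.32, adjusted p = 0.000304) and -2.19 (SE 0.35, adjusted p = 0.000482).

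Within mesoderm, Col6a3 stood at 12.1 and 11.9 CPM at E9.5, 31.1 and 26.3 CPM at E10.5, 46.8 and 34.4 CPM at E11.5 and 176 and 65.0 CPM at E12.5 and rose from E9.5 to E12.5 by 3.33 (SE 0.73, adjusted p = 0.00596), and by 2.44 (SE 0.75, adjusted p = 0.049) without mesoderm E12.5 replicate 1. Col6a2 stood at 16.9 and 11.499 CPM at E9.5, 39.0 and 23.2 CPM at E10.5, 57.5 and 26.0 CPM at E11.5 and 103 and 45.0 CPM at E12.5. It rose by 2.38 (SE 0.63, adjusted p = 0.0155), a call lost without mesoderm E9.5 replicate 1, E9.5 replicate 2 or E12.5 replicate 1 (adjusted p = 0.0602, 0.103 and 0.122). Col6a1 changed by 0.93 (SE 0.48, adjusted p = 0.176) in mesoderm and by -1.47 (SE 0.54, adjusted p = 0.09) in ectoderm, opposite in sign. With the replicate number as a block both passed (adjusted p = 0.00279 and 0.000964), and the difference between the layers passed when blocked on embryo batch (log2 fold change -2.34, adjusted p = 0.000916). The ratio of Col6a2 to Col6a1 counts went from 1.17 and 1.61 at E9.5 to 4.53 and 4.75 at E12.5 in ectoderm, and from 1.33 and 1.27 to 3.71 and 3.25 in mesoderm. Col6a4, Col6a5 and Col6a6 stayed at or below 0.396 CPM in every library.

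Fibrillar collagens make the load-bearing fibres. Of 10 chains, 9 were tested and 4 were higher in mesoderm on average, with none higher in ectoderm. Of all tested genes, 45.7% were called in that comparison, 24.3% higher and 21.4% lower in ectoderm. The share of fibrillar chains called in either direction was near that of all genes. Col3a1, the type III chain of extensible tissues and vessels, was at 145 and 68.8 CPM at E9.5, 67.2 and 29.8 CPM at E10.5, 249 and 26.7 CPM at E11.5 and 146 and 65.0 CPM at E12.5 in ectoderm. The mesoderm levels were 722 and 471 CPM at E9.5, 472 and 281 CPM at E10.5, 454 and 272 CPM at E11.5 and 1298 and 442 CPM at E12.5. The lowest mesoderm library (272 CPM) lay just above the highest ectoderm library, E11.5 replicate 1 (249 CPM), whose partner was at 26.7 CPM. The average difference was -2.47 (SE 0.45, adjusted p = 0.000788), and -3.11 (SE 0.39, adjusted p = 6.24e-05) without ectoderm E11.5 replicate 1. Between the first and the last stage mesoderm changed by 0.55 (adjusted p = 0.697), and without mesoderm E12.5 replicate 1 the sign turned (-0.43 (SE 1.03, adjusted p = 0.824)), where the group means were lowest at E10.5 and E11.5.

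Type I collagen, the main collagen of bone, tendon and dermis, is built from Col1a1 and Col1a2 chains, which lie on chromosomes 11 and 6. Col1a1 was at 148 and 56.8 CPM at E9.5, 52.3 and 28.0 CPM at E10.5, 99.2 and 37.3 CPM at E11.5 and 64.2 and 33.6 CPM at E12.5 in ectoderm. In mesoderm it was at 148 and 91.4 CPM at E9.5, 108 and 65.3 CPM at E10.5, 262 and 106 CPM at E11.5 and 898 and 191 CPM at E12.5. Mesoderm E12.5 replicate 1 was far above every other library, its partner included. It also held more tendon and connective tissue marker RNA than its partner (309 against 62.6 CPM). Tnc was the largest of these markers, with a mean of 149 CPM over the 2 libraries. The part of such RNA in this Col1a1 level was not tested. Averaged over stages, the layers differed by -1.56 (SE 0.39, adjusted p = 0.00596), and -1.19 (SE 0.34, adjusted p = 0.0154) without that mesoderm library. At E12.5 it was -3.48 (SE 0.83, adjusted p = 0.00842), lost without mesoderm E12.5 replicate 1 (log2 fold change -1.97, adjusted p = 0.102) or ectoderm E12.5 replicate 2 (adjusted p = 0.0796). From E9.5 to E12.5, Col1a1 changed by 2.19 (SE 0.79, adjusted p = 0.0568) in mesoderm, which passed with the replicate number as a block (adjusted p = 0.000137).

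Col1a2 followed another course. In ectoderm it stood at 715 and 305 CPM at E9.5, 992 and 621 CPM at E10.5, 1429.6 and 829.8 CPM at E11.5 and 368 and 469 CPM at E12.5. In mesoderm it stood at 165 and 92.4 CPM at E9.5, 879 and 469.6 CPM at E10.5, 1038 and 537 CPM at E11.5 and 2791 and 1059 CPM at E12.5. At E9.5 both ectoderm libraries were above both mesoderm libraries, and at E12.5 the order was turned, with the layers overlapping in between. Over all stages the mean difference was 0.14 (SE 0.28, adjusted p = 0.735), with opposite signs at the first and last stage: at E9.5 it was 1.98 (SE 0.59, adjusted p = 0.0324) and at E12.5 it was -2.20 (SE 0.59, adjusted p = 0.0162). The E9.5 call was lost without ectoderm replicate 1 (log2 fold change 1.24, adjusted p = 0.268) or either mesoderm library (adjusted p = 0.0689 and 0.188). The E12.5 call was lost without either ectoderm library (adjusted p = 0.111 and 0.0679) or mesoderm replicate 1 (log2 fold change -1.34, adjusted p = 0.172).

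From E9.5 to E12.5 Col1a2 rose by 3.90 (SE 0.64, adjusted p = 0.00105) in mesoderm, by 3.04 (SE 0.61, adjusted p = 0.00752) without mesoderm E12.5 replicate 1, and changed by -0.29 (SE 0.57, adjusted p = 0.829) in ectoderm. The difference between these changes was -4.19 (SE 0.84, adjusted p = 0.0108). It missed the threshold without ectoderm E12.5 replicate 1 (adjusted p = 0.0569) or mesoderm E9.5 replicate 2 (adjusted p = 0.0549). The ratio of Col1a2 to Col1a1 counts ran from 4.83 to 22.2 in ectoderm and from 1.01 to 8.12 in mesoderm, and in each of the 4 stages both ectoderm libraries were above both mesoderm libraries. In mesoderm the ratio was near 1 at E9.5 (1.12 and 1.01) and highest at E10.5 (8.12 and 7.19). The ectoderm ratio started at 4.83 and 5.37, stood at 19.0 and 22.2 on E10.5 and 14.4 and 22.2 the day after, and ended at 5.73 and 14.0.

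Type V collagen starts type I fibrils and limits their width. Col5a2 was at 35.9 and 19.6 CPM at E9.5, 371 and 393 CPM at E10.5, 411 and 303 CPM at E11.5 and 397 and 294 CPM at E12.5 in ectoderm. Mesoderm libraries held 106 and 76.7 CPM at E9.5, 267 and 202 CPM at E10.5, 333 and 202 CPM at E11.5 and 812 and 344 CPM at E12.5. The largest step was in ectoderm between E9.5 and E10.5, after which that layer stayed level. From E9.5 to E12.5 it rose by 3.65 (SE 0.46, adjusted p = 0.000371) in ectoderm and by 2.66 (SE 0.43, adjusted p = 0.00104) in mesoderm, where it was 1.91 (SE 0.39, adjusted p = 0.00845) without E12.5 replicate 1. At E9.5 the layers differed by -1.73 (SE 0.43, adjusted p = 0.013), lost without ectoderm replicate 2 or mesoderm replicate 1 (adjusted p = 0.126 and 0.0845). On average they differed by -0.34 (SE 0.21, adjusted p = 0.213), which passed when blocked on embryo batch (adjusted p = 0.0136), as did the larger rise in ectoderm (adjusted p = 0.012).

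Col5a1, its partner chain, ran from 104 to 524 (ectoderm) and 70.9 to 556 CPM (mesoderm). It was higher in ectoderm in 7 of 8 pairs from the same embryos, and the average difference was 0.60 (SE 0.23, adjusted p = 0.0506), past the threshold with the block (adjusted p = 3.34e-05). It rose from E9.5 to E12.5 by 1.70 (SE 0.47, adjusted p = 0.0298) in ectoderm and by 2.05 (SE 0.47, adjusted p = 0.00767) in mesoderm. The ectoderm call was lost without E9.5 replicate 1, E9.5 replicate 2 or E12.5 replicate 1 (adjusted p = 0.0698, 0.214 and 0.162). The mesoderm call was lost without E9.5 replicate 2 (adjusted p = 0.0655) or E12.5 replicate 1 (log2 fold change 1.35, adjusted p = 0.0779).

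Among the minor fibrillar chains, Col11a1 of cartilage fibrils ran from 24.4 to 70.8 (ectoderm) and 41.4 to 183 CPM (mesoderm), with an average difference of -1.26 (SE 0.19, adjusted p = 0.000209). It rose in mesoderm by 1.55 (SE 0.39, adjusted p = 0.0112), lost without E9.5 replicate 2 or E12.5 replicate 1 (adjusted p = 0.085 and 0.106). Col24a1, a chain linked with bone formation, was at 3.59 and 3.74 CPM at E9.5, 1.51 and 1.54 CPM at E10.5, 2.30 and 0.662 CPM at E11.5 and 3.34 and 0.989 CPM at E12.5 in ectoderm. The mesoderm levels were 2.96 and 5.35 CPM at E9.5, 2.76 and 4.84 CPM at E10.5, 6.30 and 4.86 CPM at E11.5 and 84.4 and 15.0 CPM at E12.5. It was low everywhere but in mesoderm at E12.5, where the replicates were far apart.

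The average difference of Col24a1 was -1.96 (SE 0.40, adjusted p = 0.00179), and -1.53 (SE 0.33, adjusted p = 0.00313) without mesoderm E12.5 replicate 1. In mesoderm it rose by 3.59 (SE 0.81, adjusted p = 0.00686), lost without E9.5 replicate 1 (adjusted p = 0.0673) or E12.5 replicate 1 (log2 fold change 1.85, adjusted p = 0.0957). Col27a1, a cartilage-linked chain, and Col11a2 were higher in replicate 2 than in replicate 1 in all 8 groups. Their levels ran from 7.81 to 62.5 CPM and from 0.0955 to 10.9 CPM, and neither was called in any of the 8 comparisons. With the block, Col27a1 was called at E12.5, on average and for its rise in mesoderm (adjusted p = 0.000404, 0.0064 and 0.00116). Col11a2 passed with the block at E10.5, at E12.5, for the rise in mesoderm and for the interaction (adjusted p = 0.0359, 0.0394, 0.000502 and 0.031). Col5a3 stayed at or below 0.709 CPM in every library and was not tested.

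Across stages, more members rose than fell in mesoderm. From E9.5 to E12.5, 16 members rose in mesoderm and 3 fell (19 in all, against 29.6% of tested genes, 17% up and 12.6% down), with a median log2 fold change of 1.66 over the 32 tested members and 0.02 over all tested genes. Without mesoderm E12.5 replicate 1 the count was 10 (8 rose, 2 fell), and it was 12 without either E9.5 mesoderm library. The share of all genes called fell with it, to 17.4% without the first and to 17.9% and 20.3% without the other two. The median of the 32 members lay between 1.22 (without mesoderm E12.5 replicate 1) and 2.02 over the 4 fits with 1 library left out. In ectoderm 6 rose and 3 fell (9 in all, against 16.1% of genes, 9.1% up and 7% down), with a median of 0.21 (-0.08 to 0.49 with 1 library left out). The mesoderm and ectoderm tests compare different libraries, but they share a common fit and the same embryo batches, so they are not independent. The difference of their changes was called for 6 members, all in the same direction, toward a smaller rise or larger fall in ectoderm (against 8.27% of genes, 3.12% up and 5.15% down). Blocking on embryo batch called 15, 14 of them in that direction, against 25% of genes. It added Col5a2 in the other direction and Col1a1, Col6a1, Col6a2, Col6a3, Col11a1, Col11a2, Col22a1 and Col25a1 in the common one (adjusted p from 0.000353 to 0.0387). Blocking on the replicate number called 26 members in mesoderm (51.5% of genes) and 13 in ectoderm (35.4%). It added rises of Col1a1, Col4a2, Col6a1, Col11a2, Col15a1 and Col27a1 and a fall of Col4a6 in mesoderm (adjusted p from 0.000137 to 0.0499), and rises of Col4a2 and Col4a5 and falls of Col1a1 and Col6a1 in ectoderm (adjusted p from 0.000964 to 0.0448). The count of 6 was 2 without ectoderm E12.5 replicate 1, mesoderm E9.5 replicate 1 or mesoderm E9.5 replicate 2, and 3 without ectoderm E9.5 replicate 1, ectoderm E12.5 replicate 2 or mesoderm E12.5 replicate 1. Those 6 fits called 4.06% to 5.35% of all genes.

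**Figure D4:**
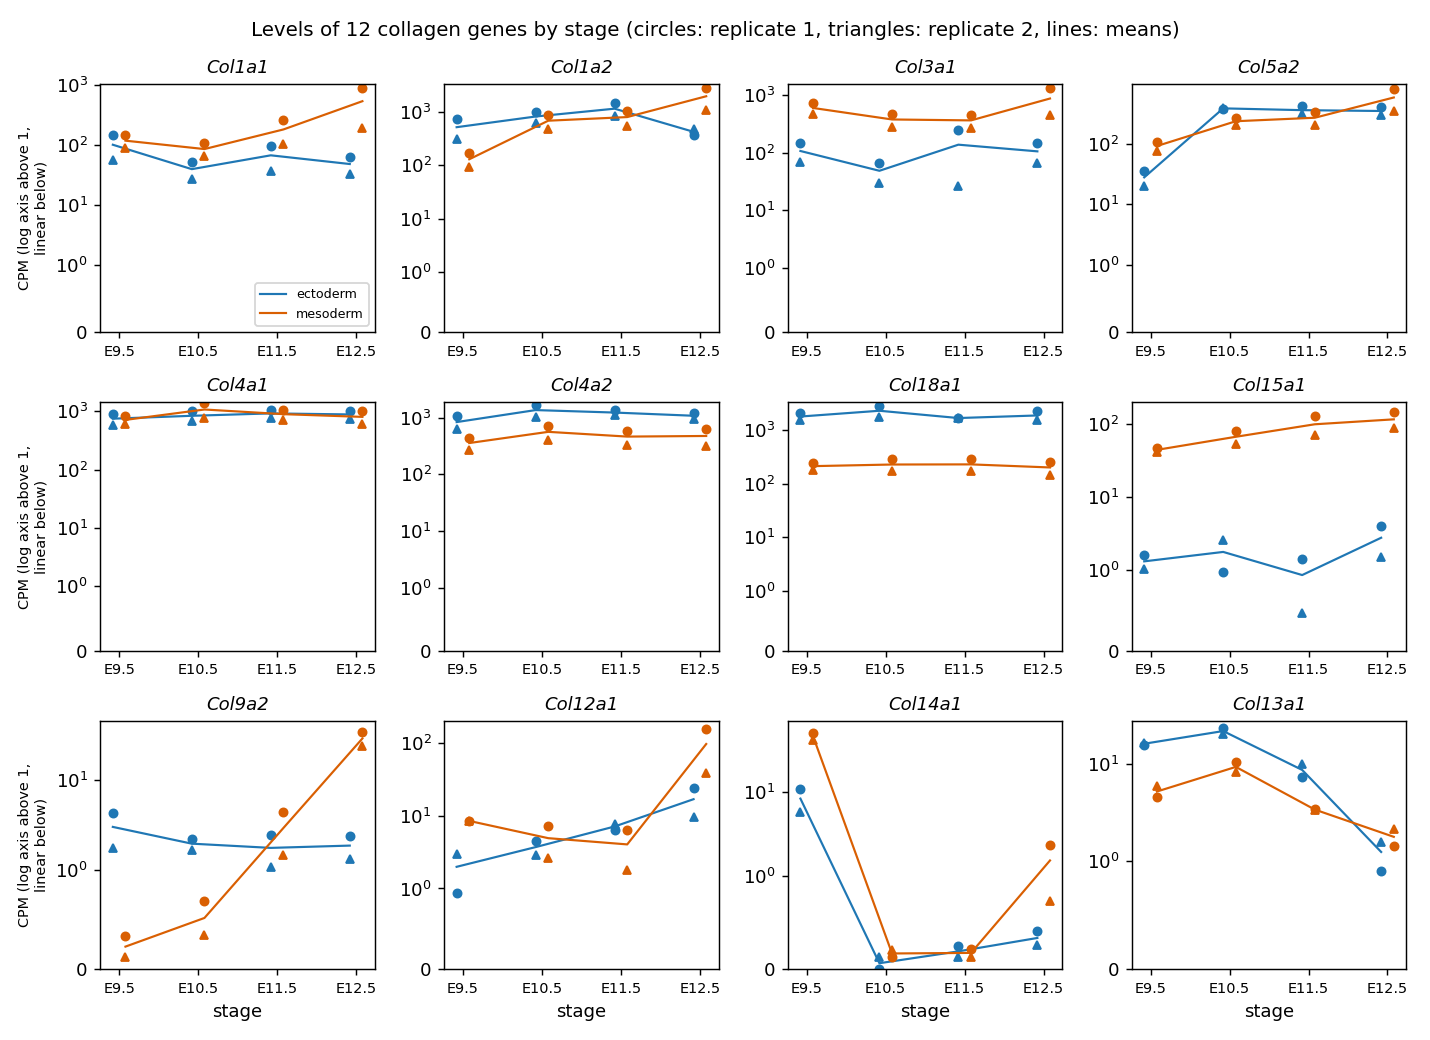
Level in CPM of 12 collagen genes at 4 stages, blue for ectoderm and orange for mesoderm, with circles for replicate 1, triangles for replicate 2 and lines through the means (log axis above 1 CPM, linear below). Col18a1 and Col15a1 stayed on opposite sides at all stages, Col9a2 rose in mesoderm, and Col14a1 fell in both layers after E9.5.

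**Figure D5:**
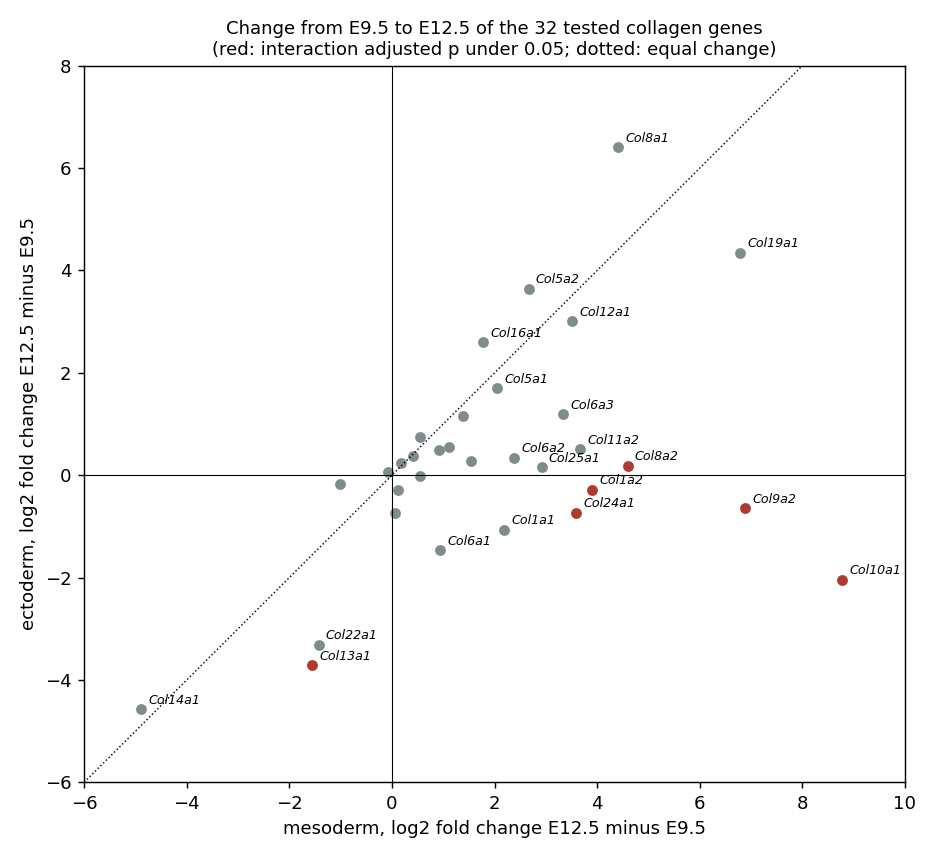
Change from E9.5 to E12.5 of the 32 tested collagen genes as log2 fold change, mesoderm on the x axis and ectoderm on the y axis, red where the difference between the layers had an adjusted p under 0.05, with the dotted line for equal change. The fitted values of Col10a1 and Col19a1 in mesoderm start from 0 counts and depend on the prior count. The 6 red genes lie below the line.

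FACIT collagens sit on the surface of fibrils, and all 7 were tested. Col9a2, a chain of type IX collagen of cartilage, was at 4.22 and 1.75 CPM at E9.5, 2.22 and 1.67 CPM at E10.5, 2.43 and 1.06 CPM at E11.5 and 2.38 and 1.32 CPM at E12.5 in ectoderm. In mesoderm it was at 0.334 and 0.123 CPM at E9.5, 0.690 and 0.341 CPM at E10.5, 4.35 and 1.47 CPM at E11.5 and 33.7 and 23.8 CPM at E12.5. Ectoderm was level, while mesoderm climbed at each stage, from below every ectoderm library at E9.5 and E10.5 to above all of them at E12.5. The rise in mesoderm was 6.88 (SE 0.80, adjusted p = 0.000152) and the change in ectoderm -0.64 (SE 0.63, adjusted p = 0.595). The difference between them was -7.53 (SE 1.01, adjusted p = 0.00122), called under every alternative run. Over the stages the average layer difference was 0.19 (SE 0.32, adjusted p = 0.689). The summed level of 9 cartilage markers in mesoderm was 141 and 148 CPM at E9.5 and 500.5 and 422 CPM at E12.5, with Matn1 at 0 at E12.5. These markers did not move together: mean Sox9 went from 31.9 to 315 CPM and Sox5 from 13.9 to 85.0 CPM. Mean Hapln1 fell from 64.8 to 6.53 CPM and Matn3 from 4.81 to 2.40 CPM. In ectoderm the sum was 375 and 431 CPM at E9.5 and 93.4 and 131 CPM at E12.5. The part of cartilage cells in the mesoderm rise of Col9a2 was not tested.

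Col12a1, of tendon and other dense tissue, was at 0.949 and 3.02 CPM at E9.5, 4.52 and 2.87 CPM at E10.5, 6.43 and 7.74 CPM at E11.5 and 24.0 and 9.63 CPM at E12.5 in ectoderm. Mesoderm libraries held 8.36 and 8.55 CPM at E9.5, 7.14 and 2.66 CPM at E10.5, 6.25 and 1.80 CPM at E11.5 and 153 and 38.7 CPM at E12.5. Both layers were highest at E12.5, where mesoderm replicate 1 was far above its partner. The tendon and connective tissue marker sum at E12.5 was 317 and 170 CPM in ectoderm and 309 and 62.6 CPM in mesoderm, with Tnmd at 0 in mesoderm. A different gene led the sum in each layer, Fmod in ectoderm (mean 189 CPM) and Tnc in mesoderm (mean 149 CPM). The part of tendon or connective tissue RNA in these Col12a1 levels was not tested. Col12a1 rose in ectoderm by 3.01 (SE 0.84, adjusted p = 0.0307) and in mesoderm by 3.51 (SE 0.80, adjusted p = 0.00724). The ectoderm call was lost without E9.5 replicate 1, E9.5 replicate 2 or E12.5 replicate 1 (adjusted p = 0.193, 0.0785 and 0.19). The mesoderm call was lost without E9.5 replicate 1, E9.5 replicate 2 or E12.5 replicate 1 (adjusted p = 0.058, 0.0515 and 0.0771, the last with a log2 fold change of 2.19). The average layer difference of -1.05 (SE 0.39, adjusted p = 0.0462) was lost without any 1 of 11 of the 16 libraries, with a log2 fold change of -0.72 without mesoderm E12.5 replicate 1. The adjusted p without them ran from 0.0589 to 0.16. Those 11 were ectoderm E9.5 replicate 1, E12.5 replicate 2 and all 4 libraries of ectoderm at E10.5 and E11.5, and mesoderm at E9.5 (both libraries), E10.5 replicate 1, E11.5 replicate 1 and E12.5 replicate 1.

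Col14a1, which binds fibrils in tendon and skin, moved the other way. In ectoderm it was at 11.1 and 5.79 CPM at E9.5, 0 and 0.133 CPM at E10.5, 0.256 and 0.132 CPM at E11.5 and 0.412 and 0.264 CPM at E12.5. The mesoderm levels were 51.3 and 42.1 CPM at E9.5, 0.138 and 0.205 CPM at E10.5, 0.222 and 0.133 CPM at E11.5 and 2.35 and 0.732 CPM at E12.5. The high level at E9.5 was gone by E10.5 in both layers. The change to E12.5 was -4.57 (SE 0.63, adjusted p = 0.000626) in ectoderm and -4.89 (SE 0.57, adjusted p = 0.000162) in mesoderm, and the difference of these changes was 0.31 (SE 0.87, adjusted p = 0.938). The muscle marker sum in mesoderm also dropped between these stages, from 50.2 and 33.7 CPM at E9.5 to 2.14 and 2.18 CPM at E10.5. The E9.5 sum was mostly Des (mean 23.4 CPM) and Pax3 (14.9 CPM), with Actc1 at 3.25 CPM. Myf5, Myod1, Myog, Myh3 and Ttn were at or below 0.191 CPM there. The part of muscle precursors in the fall of Col14a1 was not tested. On average over stages the layer difference was -1.39 (SE 0.41, adjusted p = 0.0158). It was lost without mesoderm E11.5 replicate 1 (adjusted p = 0.0757) and was -2.28 without ectoderm E10.5 replicate 2.

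Col19a1, a FACIT collagen known from muscle and basement membrane zones, was at 0.633 and 0.362 CPM at E9.5, 2.48 and 4.54 CPM at E10.5, 6.31 and 13.2 CPM at E11.5 and 9.38 and 10.3 CPM at E12.5 in ectoderm. In mesoderm it was at 0 and 0 CPM at E9.5, 0.0690 and 0.0682 CPM at E10.5, 0.576 and 0.466 CPM at E11.5 and 0.741 and 0.793 CPM at E12.5. It was above its mesoderm partner in all 8 pairs. The average difference was 4.88 (SE 0.32, adjusted p = 5.18e-07), called at each stage. The size of this average depends on the prior count, because it includes E9.5, where mesoderm had 0 counts. At E9.5 mesoderm had no counts, so ectoderm was at least 5.71-fold higher by the floor of 3 counts over the group, and at E10.5 the ratio was 53.2 (95% counting interval 17.7 to 262). Ectoderm rose by 4.34 (SE 0.51, adjusted p = 0.000355), while mesoderm went from 0 to 30 counts, at least 9.46-fold.

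The remaining FACIT members were Col16a1, Col20a1 and Col22a1. Col16a1 ran from 2.64 to 17.9 (ectoderm) and 10.4 to 57.0 CPM (mesoderm), with an average difference of -1.34 (SE 0.16, adjusted p = 3.25e-05) and a rise of 2.602 (SE 0.35, adjusted p = 0.00056) in ectoderm and 1.77 (SE 0.32, adjusted p = 0.0019) in mesoderm. Col22a1, of the junction of muscle and tendon, ran from 0.640 to 9.49 (ectoderm) and 3.70 to 13.9 CPM (mesoderm). Each ectoderm library was below its mesoderm partner, and the average difference was -1.37 (SE 0.19, adjusted p = 0.000114). It fell over time, with a log2 fold change of -3.32 (SE 0.43, adjusted p = 0.000454) in ectoderm and of -1.43 (SE 0.38, adjusted p = 0.0149) in mesoderm, the latter lost without mesoderm E9.5 replicate 1 or E12.5 replicate 1 (adjusted p = 0.0944 and 0.103). Col20a1 stayed at or below 1.402 CPM, higher in replicate 2 in all 8 groups, and had no call.

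Short-chain network collagens were all low and all rose in mesoderm, against 17% of all tested genes. Col8a1, of vessel walls and the corneal endothelium, had 3 counts in ectoderm at E9.5 and 433 at E12.5, a ratio of 102 (95% counting interval 34.5 to 495). It stood at 0.211 and 0.0603 CPM at E9.5, 0 and 0.133 CPM at E10.5, 0.980 and 1.32 CPM at E11.5 and 16.1 and 5.34 CPM at E12.5 in ectoderm and at 0.143 and 0 CPM at E9.5, 0 and 0.0682 CPM at E10.5, 0.798 and 1.66 CPM at E11.5 and 3.36 and 0.183 CPM at E12.5 in mesoderm. The fitted rise in ectoderm was 6.41 (SE 1.42, adjusted p = 0.0107), lost without E9.5 replicate 1, E9.5 replicate 2 or E12.5 replicate 1 (adjusted p = 0.0623, 0.116 and 0.0618). In both layers the E11.5 libraries were already above those of E9.5 and E10.5. The largest step in ectoderm came at E12.5, and in mesoderm 1 library carried most of the E12.5 level. Mesoderm went from 3 to 80 counts, a ratio of 25.2 (95% counting interval 8.32 to 124.8), and the call (adjusted p = 0.0348) was lost without E12.5 replicate 1 (adjusted p = 0.667) and without either E9.5 library (adjusted p = 0.0797 and 0.158).

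Col8a2, the partner chain, was at 0.287 and 0.246 CPM at E9.5, 1.24 and 0.750 CPM at E10.5, 2.17 and 0.999 CPM at E11.5 and 11.2 and 1.95 CPM at E12.5 in mesoderm. In ectoderm it was at 3.59 and 1.57 CPM at E9.5, 2.84 and 2.14 CPM at E10.5, 1.32 and 2.45 CPM at E11.5 and 3.93 and 1.78 CPM at E12.5, with no trend. Its rise in mesoderm was 4.60 (SE 0.90, adjusted p = 0.0031), and 2.83 without mesoderm E12.5 replicate 1 (adjusted p = 0.0296). Col10a1, the marker of hypertrophic cartilage, had 0 counts in mesoderm at E9.5 and E10.5 and 122 counts at E12.5, at least 38.5-fold higher. It stood at 0 and 0 CPM at E9.5, 0 and 0 CPM at E10.5, 1.06 and 0 CPM at E11.5 and 3.36 and 2.74 CPM at E12.5 in mesoderm, so only E12.5 showed it in both replicates. In ectoderm it was at 1.05 and 0.181 CPM at E9.5, 0.0887 and 0 CPM at E10.5, 0.256 and 0 CPM at E11.5 and 0.137 and 0.132 CPM at E12.5. The adjusted p of the rise in mesoderm was 0.0173, lost without either E9.5 library (adjusted p = 0.0911 and 0.0734) or E12.5 replicate 1 (adjusted p = 0.0528). The gene lies within Nt5dc1 on the other strand, and no source used here says whether reads were counted by strand.

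Transmembrane collagens were called on average in all 3 cases, against 45.7% of all tested genes. Col13a1, of muscle and nerve contacts, was at 15.7 and 16.6 CPM at E9.5, 23.4 and 20.3 CPM at E10.5, 7.41 and 9.995 CPM at E11.5 and 0.915 and 1.58 CPM at E12.5 in ectoderm. Mesoderm libraries held 4.54 and 5.90 CPM at E9.5, 10.4 and 8.32 CPM at E10.5, 3.41 and 3.40 CPM at E11.5 and 1.44 and 2.13 CPM at E12.5. It was higher in ectoderm up to E11.5 and low in both layers at E12.5. Averaged over stages, the layers differed by 0.92 (SE 0.15, adjusted p = 0.000359). It fell over time, with a log2 fold change of -3.71 (SE 0.33, adjusted p = 4.31e-05) in ectoderm and of -1.55 (SE 0.31, adjusted p = 0.00335) in mesoderm, and the fall in ectoderm was the larger (difference -2.16 (SE 0.44, adjusted p = 0.0116)). That difference missed the threshold without ectoderm E12.5 replicate 1 or mesoderm E9.5 replicate 1 (adjusted p = 0.0574 and 0.0523), or fitted on the 4 groups compared alone (adjusted p = 0.0541). The fall in mesoderm also missed it in a fit on its own groups (adjusted p = 0.0546).

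Col23a1 and Col25a1 were mesodermal. Col23a1, found in skin and other epithelia, was at 6.44 and 4.52 CPM at E9.5, 6.39 and 6.61 CPM at E10.5, 19.2 and 6.42 CPM at E11.5 and 5.17 and 3.63 CPM at E12.5 in ectoderm. The mesoderm levels were 44.7 and 41.2 CPM at E9.5, 68.7 and 63.0 CPM at E10.5, 53.6 and 54.7 CPM at E11.5 and 35.5 and 58.2 CPM at E12.5. The layers did not overlap, and the average difference was -2.95 (SE 0.22, adjusted p = 5.16e-07). Its highest ectoderm library was E11.5 replicate 1, and the difference at E11.5 was -2.07 with and -3.13 without that library. Col25a1, needed for motor nerves to reach muscle, was at 3.59 and 2.17 CPM at E9.5, 4.61 and 15.2 CPM at E10.5, 10.6 and 3.57 CPM at E11.5 and 3.39 and 2.84 CPM at E12.5 in ectoderm. In mesoderm it was at 14.1 and 14.8 CPM at E9.5, 67.5 and 69.7 CPM at E10.5, 42.9 and 60.2 CPM at E11.5 and 85.9 and 132 CPM at E12.5. The highest ectoderm library (15.2 CPM) overlapped the lowest mesoderm libraries, those of E9.5. Over all stages the mean difference was -3.28 (SE 0.29, adjusted p = 2.15e-06), and mesoderm rose by 2.92 (SE 0.55, adjusted p = 0.00233).

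Col26a1, a collagen first described in gonads, was among the more abundant chains of mesoderm. Its levels were 59.5 and 29.8 CPM at E9.5, 43.7 and 36.1 CPM at E10.5, 117 and 28.9 CPM at E11.5 and 32.7 and 20.4 CPM at E12.5 in ectoderm. In mesoderm they were 292 and 202 CPM at E9.5, 374 and 232 CPM at E10.5, 269 and 190.5 CPM at E11.5 and 327 and 186 CPM at E12.5. The layers did not overlap, and the highest ectoderm library was again E11.5 replicate 1. The average difference was -2.58 (SE 0.30, adjusted p = 2.23e-05), -2.96 (SE 0.25, adjusted p = 3.1e-06) without that library, with no called change over time in either layer (adjusted p = 0.471 and 0.965). Col28a1 stayed at or below 0.400 CPM in every library.

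Per length, the make-up of the collagen RNA differed between layers. In deposited FPKM, Col18a1 was the first member in all 8 ectoderm libraries, followed at every stage but E11.5 by Col4a2 with 103 ± 35.9 (SD, n = 2), 166 ± 49.7 and 136 ± 17.7 FPKM, below Col18a1 beyond the spread (298 ± 57.7, 387 ± 122 and 323 ± 76.6 FPKM). At E11.5 the next members, Col1a2 (172 ± 57.9 FPKM) and Col4a2 (156 ± 17.9 FPKM), did not differ beyond their spread. Second place was within the spread at the other stages too, with Col4a1 next at E9.5 (93.0 ± 17.1 FPKM), Col1a2 at E10.5 (118 ± 32.2 FPKM) and Col4a1 at E12.5 (113 ± 7.30 FPKM). In E9.5 replicate 2 Col4a1 was above Col4a2 (81.0 against 77.3 FPKM), while at E10.5 and E12.5 Col4a2 was second in both replicates. In mesoderm the first member was Col3a1 at E9.5 (113 ± 27.5 FPKM), Col4a1 at E10.5 (137 ± 25.7 FPKM), and Col1a2 at E11.5 (128 ± 51.1 FPKM) and E12.5 (306 ± 172 FPKM). The second member was within the spread each time, with Col4a1 at 83.5 ± 5.75 FPKM at E9.5, Col1a2 at 103 ± 37.6 at E10.5, Col4a1 at 119 ± 15.7 at E11.5 and Col3a1 at 177 ± 114.8 at E12.5. Compared library by library, this mesoderm order turned only on E11.5, in replicate 2, with Col4a1 at 107 FPKM and Col1a2 at 91.6 FPKM. On the remaining days the first member led the second in both replicates. At E12.5 Col1a2 was at 428 FPKM in replicate 1 and 185 FPKM in replicate 2, against 258 and 96.1 FPKM for Col3a1. Members at 10 FPKM or more numbered 9, 8, 8 and 8 in ectoderm from E9.5 to E12.5, and 7, 10, 11 and 14 in mesoderm.

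Genes that make, modify and bind collagen were taken as lists by function. Of 34 genes of collagen synthesis and processing, 33 were tested and 19 were called on average, 7 higher and 12 lower in ectoderm, 57.6% of the 33 against 45.7% of all genes (24.3% higher and 21.4% lower). Those with the largest differences were Adamts3, which trims procollagen ends (2.64 (SE 0.15, adjusted p = 4.31e-08)), Sparc, a collagen-binding matrix protein (1.33 (SE 0.21, adjusted p = 0.000224)), and Adamts2 (1.03 (SE 0.26, adjusted p = 0.00626)) on the ectoderm side. On the mesoderm side they were Colgalt2, a collagen galactosyltransferase (-3.67 (SE 0.38, adjusted p = 8.5e-06)), Tll1, a procollagen protease (-2.97 (SE 0.47, adjusted p = 0.000284)), and Plod1, a lysyl hydroxylase (-1.74 (SE 0.26, adjusted p = 0.000163)). The order of Adamts2 was turned at E12.5, at 1.14 and 0.462 CPM in ectoderm and 5.27 and 2.68 CPM in mesoderm. Serpinh1, the collagen chaperone, was not called (0.35 (SE 0.18, adjusted p = 0.144)). At E12.5 the count was 16, with 2 higher and 14 lower in ectoderm (48.5% of the 33, against 26.4% of all genes), and it was 10 (30.3% against 19%) without mesoderm E12.5 replicate 1. From E9.5 to E12.5 in mesoderm 8 rose and 2 fell, 30.3% against 29.6% of all genes, a share near the background.

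Of 10 collagen receptors, 9 were tested and 7 were called on average, 2 higher and 5 lower in ectoderm, 77.8% of the 9 against 45.7% of all genes. The tyrosine kinase receptors split: Ddr1 was higher in ectoderm (4.24 (SE 0.17, adjusted p = 2.98e-09)) and Ddr2 in mesoderm (-3.40 (SE 0.30, adjusted p = 2.42e-06)). The collagen-binding integrins split too, with Itga2 higher in ectoderm (1.13 (SE 0.12, adjusted p = 1.42e-05), though lower there at E9.5 with -2.01 (SE 0.27, adjusted p = 0.000233)), and Itga1 (-2.21 (SE 0.16, adjusted p = 5.31e-07)) and Itga11 (-2.73 (SE 0.43, adjusted p = 0.000245)) higher in mesoderm. Gp6, the platelet receptor, was at or below 1.995 CPM in every library and lower in ectoderm (adjusted p = 0.00568), and Mrc2, an endocytic receptor, differed by -0.89 (SE 0.13, adjusted p = 0.000138).

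Replicates of a group differed in a common direction. Of the 32 tested members, 13 (40.6%) were higher in replicate 1 than in replicate 2 in all 8 groups, against 18.9% of all tested genes, and 3 (9.38%) were lower in all 8, against 18.0%. Col1a1 and Col3a1 were among the 13, with replicate 1 over replicate 2 at 2.29-fold and 2.44-fold (geometric mean over 8 groups). The 3 were Col11a2, Col20a1 and Col27a1. The part of the RNA kit or of the embryo batch in this was not tested.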

How the data were processed

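Poly(A) RNA of 16 libraries was sequenced as stranded TruSeq libraries. The deposited gene counts and exon-bin counts are whole reads, and the deposited FPKM values are the authors' Cufflinks output. The submitters' processing notes name cutadapt 1.16, STAR 2.6.0c, Cufflinks 2.2.1, bedtools 2.27.1 and build mm10. The sources used here do not name the tool that counted genes or say whether it used strand.

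Gene counts were scaled by TMM, filtered by edgeR's filterByExpr and tested with edgeR 4.0.16 (R 4.3.3, limma 3.58.1) by the quasi-likelihood test. All 8 group means were fitted together, with Benjamini-Hochberg adjustment over 15501 genes. Of 53800 genes, 28342 had any count. Comparisons of stages and of layers reuse the same libraries. Replicates are separate embryo batches, 2 per stage, purified with different kits. Without a block, p-values rest on the spread between replicates, estimated over all 8 groups, which holds batch and kit together. Intervals and floors (3 counts over a group, 0.0687 to 0.115 CPM) cover counting error only. DESeq2 1.42.0 was an alternative. The exon bins were tested with diffSpliceDGE, and bin coordinates were rebuilt from a GENCODE annotation of the same build, which matched 37 of 39 members (not Col3a1 and Col20a1). The tests were also run on simulated data with known changes. Those data held no effect of embryo batch or kit, so they cannot show how the tests fare with such an effect.

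Replicate numbers pair the layers: the labels give 1 embryo batch to both layers of a stage and replicate. Replicate differences correlated across genes between layers at r = 0.546 to 0.666 within a stage and 0.432 to 0.580 between stages.

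The members and lists were chosen with earlier results of these data known. Values in every library were given for Col1a1, Col3a1, Col4a1, Col6a1 and, in each class, for up to 4 members past adjusted p 0.05 and a log2 fold change of 1. Other members were given by range, and those given in full beyond this were chosen after their values were seen. FPKM alone was used to compare levels between genes.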

Additional observations from a re-analysis of the deposited data

Results flagged for a closer look

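For 6 members the change between the first and last stage differed between the layers by edgeR's quasi-likelihood test of the difference itself, ectoderm minus mesoderm, on the log2 scale. Groups of 2 libraries allow no check for a sample far from the others. Col1a2 differed by -4.19 (SE 0.84, adjusted p = 0.0108), Col9a2 by -7.53 (SE 1.01, adjusted p = 0.00122) and Col13a1 by -2.16 (SE 0.44, adjusted p = 0.0116).

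Col24a1 differed by -4.32 (SE 1.12, adjusted p = 0.0381). It missed the threshold without any 1 of 6 libraries (ectoderm E9.5 replicates 1 and 2 and E12.5 replicate 2, mesoderm E9.5 replicates 1 and 2 and E12.5 replicate 1), with adjusted p from 0.0801 to 0.172, and was -2.59 without the last of these. In a fit on the groups compared alone its adjusted p was 0.091.

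Col8a2 differed by -4.41 (SE 1.164, adjusted p = 0.0405). It missed the threshold without any 1 of 7 of the 8 libraries at these stages, all but mesoderm E12.5 replicate 2, with adjusted p from 0.0524 to 0.174, and in a fit on the groups compared alone (adjusted p = 0.102). Col10a1 differed by -10.82 (SE 2.84, adjusted p = 0.0488), a fitted value that depends on the prior count because mesoderm had 0 counts at E9.5. It missed the threshold without any 1 of the 8 libraries, with adjusted p from 0.0643 to 0.202.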

How the results depend on the processing

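Of 116 member calls over 8 comparisons, 1297 recomputed values under the alternatives held 1165 with the call kept and 132 with it lost, 121 of these with 1 library left out and 11 in a fit on only the groups compared. None of these 1297 values changed direction. Col19a1 at E9.5 and the change of Col8a1 in mesoderm had values under 8 alternatives, against 9 for the other calls in the same comparisons. Where their value was missing they did not pass the filter, and this was counted as neither kept nor lost. The cause of the losses was not tested, beyond the smaller number of libraries. With 1 library left out the lone partner is assumed to vary like the other groups.

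Counts of members called moved as follows. Without a filter on low counts they were 23 at E9.5, 18 at E11.5, 14 for the change in ectoderm and 14 for the difference of changes, over 39 members tested instead of 32 (3404, 3357, 2720 and 1716 of all genes called, against 3320, 3196, 2495 and 1282 with the filter). Blocked on embryo batch they were 25 (E9.5), 24 (E10.5), 19 (E11.5) and 15 for the difference of changes. With DESeq2 the difference of changes gave 10 (1967 of all genes, against 1282). The block lost no call in any of the 8 comparisons, and gained 10, 9, 9 and 6 from E9.5 to E12.5, 4 on average, 4 and 7 for the changes in ectoderm and mesoderm, and 9 for their difference. The members gained are named above with each comparison. The cause of these shifts was not tested.

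With 1 library left out at a time, counts ran from 11 to 13 (E9.5), 9 to 13 (E10.5), 7 to 15 (E11.5), 15 to 23 (E12.5) and 20 to 23 (average), and from 6 to 9 for the change in ectoderm, 10 to 20 for that in mesoderm and 2 to 6 for their difference. Exon bin use gave 0 to 0. As alternatives chosen after seeing the data, the 2 libraries that stood apart were left out of the list counts. The synthesis list then gave 18 and 21 on average (19 with all libraries), 10 at E12.5 (16) and 8 for the change in mesoderm (10), and the receptor list kept its counts of 7, 6 and 2. Ratios of partner chains in FPKM and levels per kilobase stayed within their limits, and no ratio of Col4a4 to Col4a3 was possible because of zero counts. Depth limits the members near the floor, and 2 libraries a group limit every call.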
